A study of Homo sapiens with 6 samples.

Results

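The imprinted fetal growth genes examined here were IGF2, H19, DLK1, MEG3, PEG3, PEG10, CDKN1C, MEST, PLAGL1 and GRB10, taken from the count table by symbol. All 10 had a row among the 28265 rows of the table. The groups were Huh7 cells transduced with a lentiviral LHX2 expression vector and Huh7 cells transduced with a control vector (CTRL), each in 3 libraries collected at 48 h. Huh7 is an established human hepatocellular carcinoma line, and both groups therefore share its genome, its parental cells and the lentiviral procedure. Messenger RNA was sequenced with a stranded kit, so polyadenylated transcripts were measured and reads from the maternal and paternal alleles were summed. The labels do not say that replicates were separate cultures, so p-values reflect how far these libraries varied, and that variation may be technical.

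Imprinted genes are transcribed mainly from the allele inherited from 1 parent, under control of DNA methylation laid down in the germ line. Many paternally expressed ones, such as IGF2 and DLK1, promote fetal growth, and many maternally expressed ones, such as H19, CDKN1C and GRB10, restrain it. In the liver, IGF2, H19 and DLK1 are high before birth, and several of these genes are known to return in liver tumours. Most lie in clusters, in which a coding gene and a noncoding RNA share a control region: IGF2 with H19, and DLK1 with MEG3.

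The 6 libraries held 30029313 to 39653681 counts, and replicates differed from each other beyond sampling noise. The LHX2 gene itself had 2535, 2427 and 3126 counts in LHX2 libraries and 1, 2 and 1 counts in CTRL libraries, as the labels require. All 10 hepatocyte markers were detected in both groups, with summed levels of 44747 to 49089 CPM (counts per 1000000 counts, with TMM library scaling) in LHX2 libraries and 47991 to 49343 CPM in CTRL libraries. Most of that sum was AFP and ALB, and single hepatocyte markers differed in either direction. HNF4A averaged 222 CPM in LHX2 cells and 266 CPM in CTRL cells, and SERPINA1 1407 and 1731 CPM. TF averaged 2913 CPM in LHX2 cells and 2500 CPM in CTRL cells, and FOXA2 47.7 and 37.9 CPM. Markers of other cells differed in sum between the groups. The 4 leukocyte markers, 3 of them tested, summed to 612 to 678 CPM in LHX2 libraries and 471 to 500 CPM in CTRL libraries, nearly all of it LYZ, while the pan-leukocyte marker PTPRC had 5 counts over all libraries. The 4 fibroblast markers, 1 tested, summed to 35.8 to 38.2 CPM in LHX2 libraries and 9.11 to 10.4 CPM in CTRL libraries, nearly all of it COL1A2, with DCN at 1 count. The 4 bile duct markers, 3 tested, summed to 182 to 192 CPM in LHX2 libraries and 173 to 178 CPM in CTRL libraries, with KRT7 at 0. The 4 endothelial markers, 1 tested, summed to 2.78 to 3.22 CPM in LHX2 libraries and 3.75 to 4.28 CPM in CTRL libraries, with CDH5 and TEK at 0. The part of these markers in the changes of IGF2 and DLK1 was not tested. In bulk RNA, fewer cells of a type and less RNA per cell cannot be told apart.

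Of the 10 genes, 7 had enough reads to be tested. IGF2 rose and DLK1 fell with LHX2. PEG10, GRB10, MEST, PLAGL1 and CDKN1C did not pass the threshold (adjusted p under 0.05, edgeR quasi-likelihood F-test). H19, PEG3 and MEG3 had too few reads for the test. Across all 14533 tested genes, 32.5% passed, 16.6% higher and 15.8% lower, so calls among 2 of 7 members stand beside a background of about the same share. The CPM of the groups did not overlap for 4 of the 7 members, against 44.9% of all tested genes. The median absolute log2 fold change was 0.16 over all tested genes and 0.30 over those that passed, both smaller than the changes of IGF2 and DLK1.

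**Figure D1:**
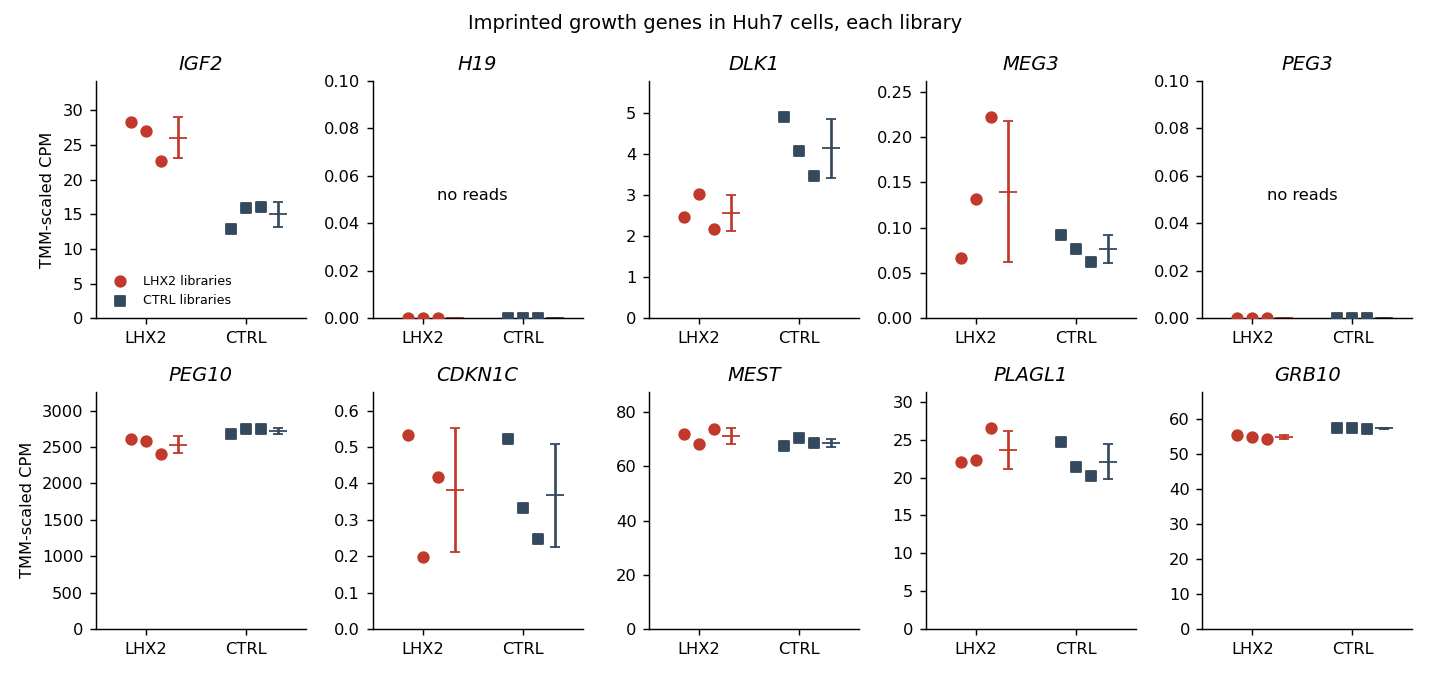
Level of each imprinted growth gene in every library, in TMM-scaled CPM on linear axes that start at 0, with circles for LHX2 libraries, squares for CTRL libraries, and a bar for each group's mean ± SD (n = 3). The IGF2 points lie between 22.8 and 28.4 CPM with LHX2 and between 12.9 and 16.1 CPM in CTRL, while the DLK1 points lie between 2.16 and 3.02 CPM with LHX2 and between 3.45 and 4.89 CPM in CTRL.

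Levels are best compared between genes per kilobase of the longest transcript. On that scale PEG10 was far above the rest, with a mean of 383 CPM per kb in LHX2 libraries and 412 CPM per kb in CTRL libraries, which ranked it 109 of 14242 tested genes with a known length. MEST followed at 28.5 and 27.5 CPM per kb in LHX2 and CTRL libraries, and GRB10 at 10.1 and 10.5 CPM per kb. The median tested gene had 5.86 CPM per kb. IGF2 and PLAGL1 came below that median. DLK1 had 0.540 CPM per kb in LHX2 libraries and 0.875 CPM per kb in CTRL libraries, and CDKN1C had 0.197 and 0.190. MEG3 was the lowest of those with reads, at 0.0108 and 0.00591 CPM per kb.

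The order of these levels was separate in every library except at IGF2 and PLAGL1. In LHX2 libraries IGF2 spanned 4.08 to 5.08 CPM per kb and PLAGL1 spanned 3.51 to 4.22 CPM per kb, so these neighbours overlapped. In CTRL libraries IGF2 spanned 2.31 to 2.88 CPM per kb and lay below PLAGL1, which spanned 3.20 to 3.92 CPM per kb.

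**Figure D2:**
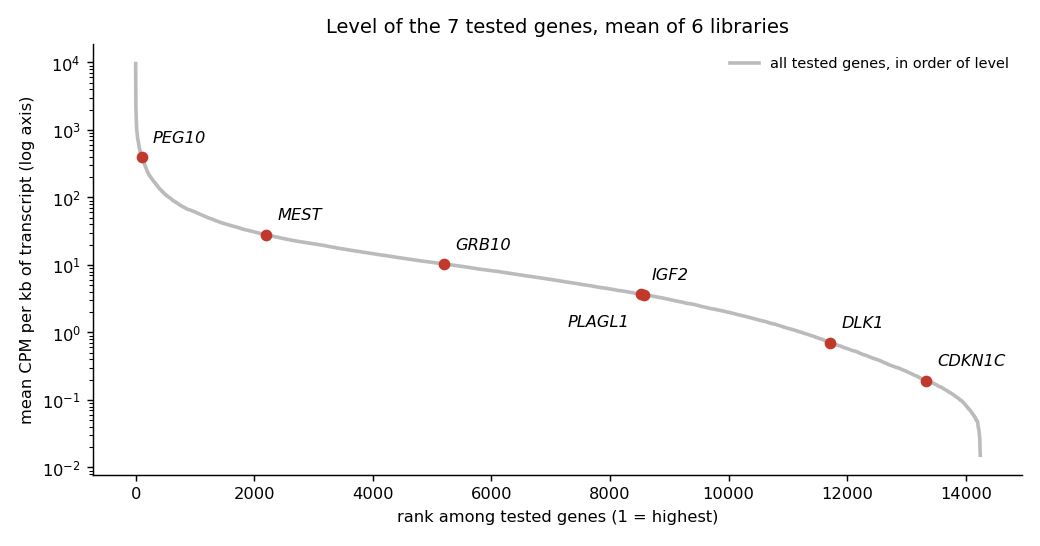
Mean level over the 6 libraries in CPM per kb of transcript, on a log axis, against rank among the 14242 tested genes with a known length, with a grey line for all tested genes and red points for the 7 tested members. PEG10 stands at rank 109, IGF2 and PLAGL1 lie side by side at ranks 8521 and 8566, and CDKN1C is the lowest at rank 13332.

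IGF2 encodes insulin-like growth factor 2, the fetal growth ligand of the IGF1 receptor. Its gene lies on chromosome 11 from 2129117 to 2149566 (GRCh38, minus strand). IGF2 had 853, 825 and 820 counts in LHX2 libraries, and 420, 625 and 522 counts in CTRL libraries. As CPM these were 28.4, 27.1 and 22.8 in LHX2 libraries, against 12.9, 15.9 and 16.1 in CTRL libraries. Every LHX2 library was above every CTRL library, although the third LHX2 library was the lowest of its group and the first CTRL library the lowest of all. The mean was 26.1 ± 2.95 CPM in LHX2 cells and 14.98 ± 1.79 CPM in CTRL cells (SD, n = 3 each). The log2 fold change was 0.80 ± 0.10 (SE), with a 95% interval from 0.59 to 1.003, a 1.74-fold higher level (edgeR adjusted p = 2.0e-05). Among all 14533 tested genes, 564 passed with a change at least as large in either direction.

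IGF2 shares 20.6% of its exonic bases with the readthrough gene INS-IGF2 on the same strand and 5.93% with IGF2-AS on the opposite strand, in GENCODE 29. INS-IGF2 had 0 counts in all libraries. How reads in shared exons were assigned is not given, and its part in the IGF2 level was not tested. IGF2-AS, a noncoding antisense transcript, had 18, 8 and 13 counts in LHX2 libraries and 4, 7 and 8 counts in CTRL libraries, too few for the test. The lowest LHX2 count of IGF2-AS equalled the highest CTRL count. The ratio of the sums, 39 against 19 counts scaled for depth, was 2.22 (exact binomial 95% interval 1.25 to 4.06). This interval covers counting error only.

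H19 is the maternally expressed noncoding RNA of the same cluster, among the most abundant RNAs of fetal liver. Its gene lies on chromosome 11 from 1995176 to 2001266 on the minus strand. H19 had 0 counts in all 6 libraries, where a count of 0 allows up to 3 counts, or 0.0766 to 0.0999 CPM depending on the library. H19 is thus listed at 0 in both groups, and no fold change can be given. H19 shares 2.52% of its exonic bases with the precursor of miR-675, which had 0 counts as well. SNRPN and SNURF, another imprinted pair that shares exons (69.3% of SNURF's exonic bases), were also both at 0. The annotation and the counting of shared reads are not given, and their part in these zeros was not tested.

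The other genes around H19 and IGF2 were tested within 250 kb. MRPL23-AS1, a noncoding transcript that starts 5.26 kb from H19 and 139 kb from IGF2, had 3.86, 3.58 and 4.33 CPM in LHX2 libraries and 2.15, 1.84 and 2.03 CPM in CTRL libraries. The groups were fully separate, with a log2 fold change of 0.97 ± 0.14 (SE, edgeR adjusted p = 1.04e-04). MRPL23, which encodes a mitochondrial ribosomal protein and whose annotated span reaches H19, averaged 2.15 CPM in LHX2 cells and 2.42 CPM in CTRL cells (log2 fold change -0.18, edgeR adjusted p = 0.486). CTSD, the lysosomal protease cathepsin D, rose by 0.25 on the log2 scale at 231 kb from H19 (edgeR adjusted p = 0.00269). CD81, a tetraspanin of the cell surface, rose by 0.25 at 227 kb from IGF2 (edgeR adjusted p = 0.00174). With a trend in transcript length and GC content removed, CD81 changed by 0.09 (adjusted p = 0.194).

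DLK1 encodes a transmembrane and shed protein related to the Notch ligands, a marker of fetal liver progenitor cells. The gene lies on chromosome 14 from 100726892 to 100738224 on the plus strand and shares no exonic base with another annotated gene. DLK1 had 74, 92 and 78 counts in LHX2 libraries, and 159, 159 and 112 counts in CTRL libraries. As CPM these were 2.46, 3.02 and 2.16 in LHX2 libraries, against 4.89, 4.06 and 3.45 in CTRL libraries. All LHX2 libraries lay below all CTRL libraries, and the gap between the nearest libraries was small relative to the spread in CTRL. The mean was 2.55 ± 0.434 CPM in LHX2 cells and 4.13 ± 0.721 CPM in CTRL cells (SD, n = 3 each). The log2 fold change was -0.70 ± 0.16 (SE), with a 95% interval from -1.05 to -0.35 (edgeR adjusted p = 0.00402). The level was 1.63-fold higher in CTRL cells. Among all tested genes, 717, or 4.93%, passed with a change at least as large in either direction.

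MEG3 is the maternally expressed noncoding RNA of the DLK1 cluster, known as a growth suppressor, on chromosome 14 from 100826108 to 100861026 on the plus strand. MEG3 had 2, 4 and 8 counts in LHX2 libraries and 3, 3 and 2 counts in CTRL libraries, and was not tested. The groups overlapped, and the ratio of the sums, 14 against 8 counts, was 1.89 (0.739 to 5.197, exact binomial 95% interval). Around MEG3, 99 of the 101 other rows within 250 kb had 0 counts, most of them short noncoding RNAs. WDR25, the only other tested gene within 250 kb of DLK1, averaged 4.62 CPM in LHX2 cells and 4.69 CPM in CTRL cells (log2 fold change -0.02, edgeR adjusted p = 0.908).

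The opposite changes of IGF2 and DLK1 were also read as a ratio within each library, which does not depend on scaling. IGF2 had 11.5, 8.97 and 10.5 counts per DLK1 count in LHX2 libraries, against 2.64, 3.93 and 4.66 in CTRL libraries. The mean log2 ratio was 1.496 higher in LHX2 libraries. This ratio was chosen after the opposite changes were seen, so it is a description only. An exact two-sided permutation test over libraries gave p = 0.1, the smallest this design allows, so it could not decide.

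**Figure D3:**
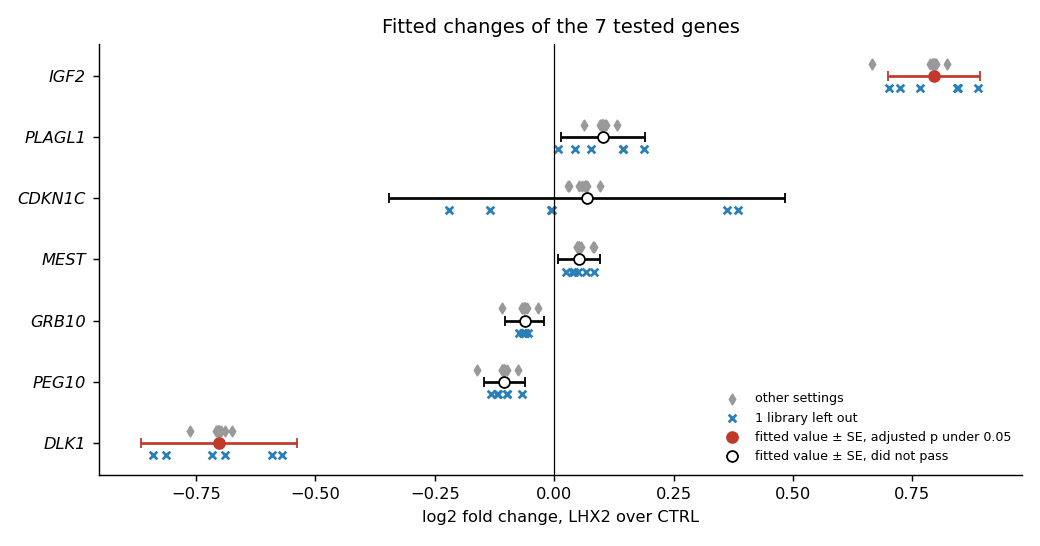
Log2 fold change of LHX2 over CTRL for the 7 tested members, with circles and bars for the fitted value ± SE (red where the adjusted p was under 0.05), diamonds for other processing settings and crosses for fits with 1 library left out. IGF2 at 0.80 and DLK1 at -0.70 stand apart from PEG10, GRB10, MEST and PLAGL1, which lie between -0.10 and 0.10, and CDKN1C has the widest bar (0.07 ± 0.41).

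Some members host microRNAs, short RNAs that silence messages through their seed, the stretch from base 2 to base 8. The mature sequences matched in RefSeq (GRCh38.p14) for H19, MEG3 and MEST are shown because they are the further products of these host transcripts, with the seed in capitals, 5′ to 3′.
hsa-miR-675-5p: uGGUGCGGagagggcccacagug
hsa-miR-675-3p: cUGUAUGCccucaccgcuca
hsa-miR-770-5p: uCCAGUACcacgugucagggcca
hsa-miR-335-5p: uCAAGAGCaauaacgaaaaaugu
hsa-miR-335-3p: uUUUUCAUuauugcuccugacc
The 2 arms of miR-675 lie in H19 at chr11:1996800-1996822 and chr11:1996768-1996787 on the minus strand. miR-770-5p lies in MEG3 at chr14:100852409-100852431, and the arms of miR-335 lie in MEST at chr7:130496126-130496148 and chr7:130496162-130496183, all on the plus strand. The 5 seeds all differ, so no seed is shared between hosts. These libraries measured polyadenylated host RNA and not mature microRNAs: of the precursor rows, MIR675 and MIR770 had 0 counts and MIR335 had 1 count over all libraries. Of the hosts, only MEST was abundant.

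MEST encodes a protein of the alpha/beta hydrolase fold, expressed from the paternal allele in mesodermal tissues of the fetus, on chromosome 7 from 130486175 to 130506465. Its CPM was 71.8, 68.2 and 73.9 in LHX2 libraries and 67.4, 70.3 and 68.7 in CTRL libraries, so the groups overlapped. The log2 fold change was 0.05 ± 0.04 (SE), with a 95% interval from -0.04 to 0.15 (edgeR adjusted p = 0.403). Its antisense partner MESTIT1, which covers 10.1% of MEST's exonic bases, had 6, 11 and 9 counts in LHX2 libraries and 4, 14 and 16 in CTRL libraries (log2 fold change -0.27, edgeR adjusted p = 0.702). CEP41, a centrosomal protein gene 44.4 kb from MEST, rose by 0.20 (edgeR adjusted p = 0.0325). CEP41 no longer passed with the replicate block (adjusted p = 0.0836), the length and GC trend removed (0.0652) or without the first LHX2 library (0.128), the second LHX2 library (0.0764), the first CTRL library (0.157) or the second CTRL library (0.0642).

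PEG10 derives from a retrotransposon and encodes gag-like and pol-like proteins needed for the placenta, and it is known to be high in hepatocellular carcinoma. The gene lies on chromosome 7 from 94656325 to 94669695 on the plus strand. PEG10 had 2615, 2588 and 2400 CPM in LHX2 libraries, and 2678, 2747 and 2748 CPM in CTRL libraries. It took 0.246% to 0.262% of all counts in LHX2 libraries and 0.267% to 0.271% in CTRL libraries. The groups did not overlap, but the third LHX2 library lay well below the other LHX2 libraries. The log2 fold change was -0.10 ± 0.04 (SE), with a 95% interval from -0.20 to -0.01 and an edgeR adjusted p of 0.0832. PEG10 passed in 5 of 15 alternatives: with no filter on low counts (adjusted p = 0.0414), DESeq2 (0.0473), limma-voom (0.0423), the length and GC trend removed (0.00478), and without the first LHX2 library (0.0348).

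Around PEG10, 4 genes were tested and 3 rose, where 16.6% of all tested genes rose. SGCE, the sarcoglycan gene that starts 0.192 kb from PEG10 on the other strand and is also imprinted, averaged 119 CPM in LHX2 cells and 120 CPM in CTRL cells (log2 fold change -0.02, edgeR adjusted p = 0.818). CASD1, a sialic acid O-acetyltransferase gene at 22.2 kb, averaged 94.8 ± 2.93 CPM in LHX2 cells and 69.5 ± 2.75 CPM in CTRL cells (SD, n = 3 each) and rose by 0.45 (edgeR adjusted p = 2.4e-06). PPP1R9A, a neuronal scaffold gene at 238 kb, rose by 0.32 (edgeR adjusted p = 0.00136). COL1A2, the type I collagen chain gene at 225 kb, had the largest change of the 29 tested neighbours of all members: 37.9, 37.0 and 35.5 CPM in LHX2 libraries against 9.04, 8.65 and 10.1 CPM in CTRL libraries (log2 fold change 1.99, edgeR adjusted p = 4.3e-11). COL1A2 was the only gene of the 4 fibroblast markers with enough reads to be tested. The others, COL1A1, PDGFRB and DCN, had 49, 26 and 1 counts over all libraries.

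**Figure D4:**
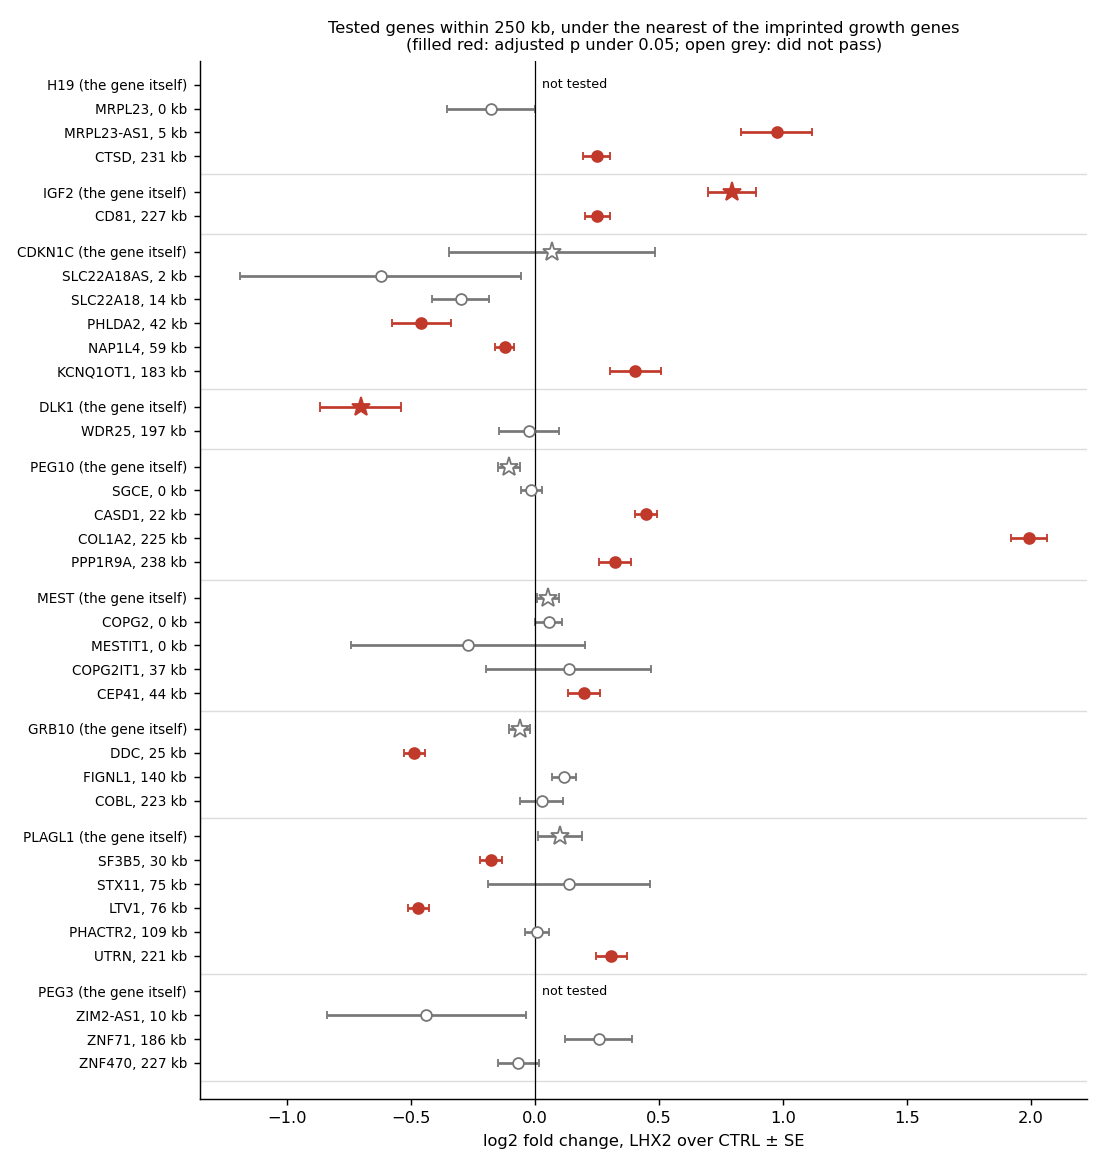
Log2 fold change with SE of each tested gene within 250 kb of a member, listed under the nearest member with its distance, and stars for the members themselves. COL1A2 at 1.99 and MRPL23-AS1 at 0.97 are the highest neighbours, and the CDKN1C and PLAGL1 loci each hold neighbours that rose and neighbours that fell.

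GRB10 encodes an adaptor that binds the insulin and IGF1 receptors and dampens their signal, on chromosome 7 from 50590068 to 50793453. GRB10 had 55.3, 54.8 and 54.3 CPM in LHX2 libraries and 57.3, 57.3 and 57.0 CPM in CTRL libraries. The groups did not overlap, and the spread within each was small, at 54.8 ± 0.505 CPM in LHX2 cells and 57.2 ± 0.164 CPM in CTRL cells (SD, n = 3 each). The log2 fold change was -0.06 ± 0.04 (SE), with a 95% interval from -0.15 to 0.03 (edgeR adjusted p = 0.277). GRB10 passed in 1 of 15 alternatives, the length and GC trend removed (-0.11, adjusted p = 0.0409). DDC, the aromatic amino acid decarboxylase gene 24.7 kb away and imprinted in the same cluster, fell by 0.49 on the log2 scale. DDC averaged 59.3 ± 2.51 CPM in LHX2 cells and 83.0 ± 1.63 CPM in CTRL cells (SD, n = 3 each, edgeR adjusted p = 1.0e-06).

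PLAGL1 is a zinc finger transcription factor that, in the mouse, regulates other imprinted genes. It lies on chromosome 6 from 143940300 to 144064599 on the minus strand. PLAGL1 had 22.1, 22.3 and 26.6 CPM in LHX2 libraries and 24.7, 21.4 and 20.2 CPM in CTRL libraries. The groups overlapped, and the log2 fold change was 0.10 ± 0.09 (SE), with a 95% interval from -0.09 to 0.29 (edgeR adjusted p = 0.414). HYMAI, a noncoding RNA from the same promoter region that shares 3.31% of PLAGL1's exonic bases, had 17 counts in LHX2 libraries and 15 in CTRL libraries and was not tested. Of the genes nearby, the ribosome biogenesis factor LTV1 fell by 0.47 at 76.5 kb (91.3 CPM in LHX2 cells and 126 CPM in CTRL cells, edgeR adjusted p = 7.7e-07). The splicing factor gene SF3B5 fell by 0.18 at 30.3 kb (edgeR adjusted p = 0.00644, or 0.0665 with the length and GC trend removed), and UTRN, which encodes utrophin, rose by 0.31 at 221 kb (edgeR adjusted p = 0.0013, or 0.17 on the log2 scale with that trend removed).

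PEG3, a paternally expressed zinc finger gene on chromosome 19 from 56810082 to 56840726, had 0 counts in all 6 libraries. ZIM2, which shares 12.9% of PEG3's exonic bases, also had 0 counts, and the part of shared reads in this was not tested. Of the 9 other rows within 250 kb of PEG3, 3 were tested, the zinc finger genes ZNF71 and ZNF470 and the noncoding ZIM2-AS1. Of these, 0 passed with edgeR, DESeq2 or limma-voom, and 0 had an unadjusted edgeR p under 0.05. The log2 fold changes were 0.26, -0.07 and -0.44, the last from 79 counts over all libraries (SE 0.40). Over all tested genes 32.5% passed with edgeR, and at that share 0 of 3 does not set this locus apart.

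CDKN1C encodes p57, an inhibitor of cyclin-dependent kinases expressed from the maternal allele, on chromosome 11 from 2883218 to 2885775. It had 16, 6 and 15 counts in LHX2 libraries and 17, 13 and 8 counts in CTRL libraries. Both groups spanned the same low range, and the log2 fold change of 0.07 ± 0.41 (SE) had a 95% interval from -0.82 to 0.96 (edgeR adjusted p = 0.921). At this depth, a change of CDKN1C within that interval could not be told from no change. KCNQ1OT1, the long noncoding RNA that controls this cluster, had 42.5, 60.0 and 43.6 CPM in LHX2 libraries and 35.8, 35.1 and 39.4 CPM in CTRL libraries. Its log2 fold change was 0.40 (edgeR adjusted p = 0.00676), with the second LHX2 library far above the others, and 0.23 without that library (adjusted p = 0.0117). With the length and GC trend removed KCNQ1OT1 turned to -0.14 (adjusted p = 0.0295), and with DESeq2 it did not pass (adjusted p = 0.067). PHLDA2, an imprinted growth restrainer of the placenta 42.5 kb from CDKN1C, fell by 0.46, with 3.73 CPM in LHX2 cells and 5.12 CPM in CTRL cells (edgeR adjusted p = 0.00817). NAP1L4, a histone chaperone gene, fell by 0.12 (edgeR adjusted p = 0.0246) and no longer passed with library totals alone, the replicate block, or without the second LHX2 library or any of the CTRL libraries (adjusted p 0.0604 to 0.0874). SLC22A18, an imprinted transporter gene of the cluster, had a log2 fold change of -0.30 (edgeR adjusted p = 0.0587).

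Over all loci, 174 rows other than the members lay within 250 kb of a member and 29 were tested. Of these, 9 rose, 5 fell and 15 did not pass, so 48.3% were called, against 32.5% of all tested genes. Neighbours of a member share a locus and are not independent.

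Other imprinted genes were listed apart from the members. Of 61 with a row, 30 were tested, 7 rose, 4 fell and 19 did not pass. That was 36.7% called, against 32.5% of all tested genes. Some of these calls, among them KCNQ1OT1, PHLDA2, PPP1R9A and DDC, also count among the neighbours above, so the shares are not independent. The median log2 fold change was 0.03, against 0.01 over all tested genes. GLIS3, a zinc finger transcription factor gene, had the largest change, with 54.2 ± 2.31 CPM in LHX2 cells and 22.1 ± 0.623 CPM in CTRL cells (SD, n = 3 each, log2 fold change 1.29, edgeR adjusted p = 1.7e-10). INPP5F, a phosphoinositide phosphatase gene, rose by 0.53, with 21.1 CPM in LHX2 cells and 14.6 CPM in CTRL cells (edgeR adjusted p = 1.0e-04). KCNK9, a potassium channel gene, fell by 0.93 at a low level of 0.311 CPM in LHX2 cells and 0.594 CPM in CTRL cells (edgeR adjusted p = 0.043). KCNK9 did not pass in 8 of the 14 alternatives in which it was tested, among them DESeq2 (adjusted p = 0.141) and 5 of the 6 in which a library was left out (0.0615 to 0.15). DDC, described beside GRB10, completes the 4 with the largest changes.

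The IGF axis, the receptors, binding proteins and signal carriers through which IGF2 acts, had 17 tested genes of 25 with a row. Of these, 6 rose, 1 fell and 10 did not pass. That was 41.2% called, against 32.5% of all tested genes, with a median log2 fold change of 0.14. With the length and GC trend removed, 4 rose and 4 fell. That setting called 2864 of all tested genes lower, against 2301 without it. IRS2, the adaptor that couples the insulin and IGF1 receptors to PI3 kinase, had 13.1, 12.6 and 11.7 CPM in LHX2 libraries and 3.90, 3.37 and 3.42 CPM in CTRL libraries. The groups were far apart, with a log2 fold change of 1.81 ± 0.10 (SE, edgeR adjusted p = 4.3e-09). AKT1, the kinase below PI3 kinase, rose by 0.37, with 39.8 CPM in LHX2 cells and 30.8 CPM in CTRL cells (edgeR adjusted p = 1.4e-04). With the length and GC trend removed AKT1 changed by 0.17 (adjusted p = 0.0141). STC2, a secreted inhibitor of the protease that cleaves IGF binding proteins, was the 1 gene that fell, by 0.45, with 64.0 CPM in LHX2 cells and 87.4 CPM in CTRL cells (edgeR adjusted p = 3.9e-06).

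IGFBP4, an IGF binding protein gene, rose by 0.33 (edgeR adjusted p = 0.0339) but did not pass in 6 of 15 alternatives (adjusted p 0.0525 to 0.148). These were the replicate block, DESeq2, and the fits without the first or the third LHX2 library or the second or the third CTRL library. Of the receptors, INSR, the insulin receptor, rose by 0.21, with 57.6 CPM in LHX2 cells and 49.9 CPM in CTRL cells (edgeR adjusted p = 0.00667). IGF1R, the signalling receptor of IGF2, averaged 53.4 CPM in LHX2 cells and 48.6 CPM in CTRL cells (log2 fold change 0.14, edgeR adjusted p = 0.0568). IGF2R, which clears IGF2 from the cell surface, averaged 220 CPM in LHX2 cells and 202 CPM in CTRL cells (log2 fold change 0.12, edgeR adjusted p = 0.0672). The remaining genes of this list that rose were GRB14, by 0.21, and INPPL1, by 0.18 (edgeR adjusted p = 0.00614 and 0.014).

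Factors that write, read or erase imprints at control regions were measured too. Of 17 with a row, 13 were tested, 2 rose and 11 did not pass. That was 15.4% called, against 32.5% of all tested genes, with a median of 0.02. TET2, an enzyme that oxidises methylated cytosine, rose by 0.39, with 25.8 CPM in LHX2 cells and 19.8 CPM in CTRL cells (edgeR adjusted p = 5.1e-04). UHRF1, which guides the maintenance methyltransferase to new DNA, rose by 0.17 (edgeR adjusted p = 0.012, or 0.0636 without the third CTRL library). CTCF, the factor that insulates IGF2 from its enhancers on the unmethylated allele, had a log2 fold change of -0.09 (edgeR adjusted p = 0.0897). DNMT1, the maintenance methyltransferase, had a log2 fold change of 0.02 (edgeR adjusted p = 0.638). With the length and GC trend removed, 5 of the 13 were lower, in a setting that called 2864 of all tested genes lower, against 2301 without it.

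All 14 genes of a fetal liver programme, the genes that mark hepatoblasts and their regulators, were tested. Of these, 5 rose, 3 fell and 6 did not pass. That was 57.1% called, against 32.5% of all tested genes, with a median of 0.12. ZBTB20, a repressor of AFP, rose by 0.47 with 41.2, 63.4 and 40.2 CPM in LHX2 libraries and 35.3, 32 and 37.2 CPM in CTRL libraries (edgeR adjusted p = 0.0122). The second LHX2 library carried the highest ZBTB20 value, and without it the log2 fold change was 0.23 (adjusted p = 0.0199). With the length and GC trend removed it was 0.22 (adjusted p = 0.041), and ZBTB20 did not pass with DESeq2 (adjusted p = 0.123) or without the second CTRL library (0.0571). EPCAM, a progenitor cell adhesion gene, rose by 0.38, with 29.4 CPM in LHX2 cells and 22.5 CPM in CTRL cells (edgeR adjusted p = 8.0e-04). GPC3, a proteoglycan of fetal liver and liver tumours, rose by 0.25, with 1166 CPM in LHX2 cells and 980 CPM in CTRL cells (edgeR adjusted p = 4.6e-04). HMGA2 and PLAGL2 also rose, by 0.15 and 0.18 (edgeR adjusted p = 0.0080 and 0.00269). In contrast, LIN28B was lower, with 543 CPM in LHX2 cells and 608 CPM in CTRL cells (log2 fold change -0.16, edgeR adjusted p = 0.00965). IGF2BP3 was lower too, with 123 CPM in LHX2 cells and 139 CPM in CTRL cells (log2 fold change -0.17, edgeR adjusted p = 0.00481).

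ZHX2, a repressor of AFP and H19 known in the mouse, fell by 0.23, with 38.1 CPM in LHX2 cells and 44.7 CPM in CTRL cells (edgeR adjusted p = 0.00198). AFP itself, the fetal serum protein, had 23425, 24111 and 21715 CPM in LHX2 libraries and 24445, 24853 and 24928 CPM in CTRL libraries. The AFP groups did not overlap, but the log2 fold change of -0.10 did not pass (edgeR adjusted p = 0.147, or 0.0401 with no filter on low counts).

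Other members of the families of CDKN1C and PEG10 were tested for comparison. None of the 7 other inhibitors of cyclin-dependent kinases passed with edgeR, DESeq2 or limma-voom, and 1 had an unadjusted p under 0.05, CDKN2C, with a log2 fold change of 0.20 (edgeR adjusted p = 0.056). The median of these inhibitors was 0.05, and 32.5% of all tested genes passed with edgeR. Of 11 other gag-derived genes with a row, 5 were tested and 0 passed with edgeR or DESeq2, against 1 with limma-voom, and 1 had an unadjusted edgeR p under 0.05, LDOC1, with a log2 fold change of 0.20 (edgeR adjusted p = 0.0558). Their median log2 fold change was 0.16.

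**Figure D5:**
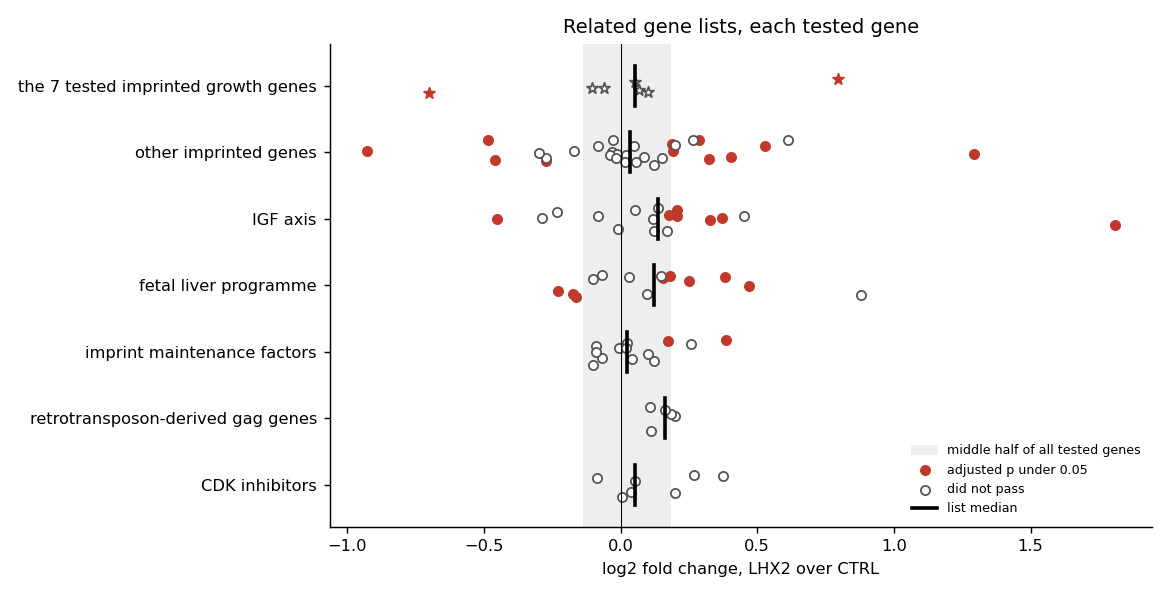
Log2 fold change of LHX2 over CTRL for every tested gene of the members (stars) and of each related list (circles), filled red where the adjusted p was under 0.05, with a black bar at each median and a grey band from the lower to the upper quartile of all tested genes. IRS2 at 1.81 and GLIS3 at 1.29 are the highest points, and the medians of the related lists lie between 0.02 and 0.16.

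For 3 members, the genes whose levels ran most like theirs across the 6 libraries were named by Pearson correlation of log2(CPM + 0.05), among genes of at least 5 CPM. The points share group, library and depth, so these are descriptions. For IGF2 they were CBLL1 (r = 0.999), IQGAP1 (0.996) and NUSAP1 (0.996). CBLL1 averaged 97.9 CPM in LHX2 cells and 80.5 CPM in CTRL cells, a smaller difference than that of IGF2. For DLK1 they were METTL1 (0.990), CEP95 (0.989) and STK10 (0.983). For PEG10, taken in place of H19, they were EEF1AKNMT (0.997), GNAL (0.996) and ERI3 (0.994).

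LHX2 belongs to the homeodomain factors, whose binding sites often hold TAATTA, a palindrome that reads the same on both strands. The windows from 250 bases before to 50 bases after annotated starts (RefSeq, GRCh38.p14) covered H19, MEG3, MEST, PLAGL1 and GRB10 with 19 windows. TAATTA occurred in 0 of the 19, against 4.84% of all 35116 windows and 2.58% of 16338 windows of tested genes. The share was 2.92% for genes that rose and 2.56% for genes that fell. Some of the 19 windows overlap each other, and at shares this low 0 of 19 does not set these genes apart. These letters are thus not in these windows, and IGF2, DLK1, PEG10, CDKN1C and PEG3 were not searched.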

How the data were processed

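Huh7 cells carrying an LHX2 or a control lentiviral vector were compared in 6 libraries. The authors deposited raw read counts for each gene, as whole numbers without normalization, and all per-sample columns were used. The submitters' processing notes name featureCounts 2.0.0, SAMtools 1.9, TopHat2 2.1.1, FastQC, bcl2fastq 2.20 and Bowtie2 2.3.5.1, with GRCh38/hg38 as the build. The sources used here give neither their settings nor the gene annotation, the strand setting or the treatment of reads shared by several genes. The first control column is named in a form of its own and was read as control replicate 1, the number at its end.

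The 28265 rows were filtered by edgeR's filterByExpr with min.prop 0.7, min.count 10 and min.total.count 15, and 14533 genes remained. They were scaled by TMM factors and compared by group alone with edgeR's quasi-likelihood F-test. Adjusted p is Benjamini-Hochberg over all 14533 genes, at a threshold of 0.05. Standard errors (SE) were taken from the F statistic and 95% intervals from the t quantile. CPM values are TMM-scaled. RefSeq GRCh38.p14 gave positions, sequences and biotypes for the 27953 rows matched by gene identifier and 1 matched by symbol, and GENCODE 29 gave exons and longest transcripts. Depth was 30029313 to 39653681 counts per library. Exact binomial intervals on summed counts (95%) describe counting error alone, as reads carry no molecular identifiers and are not independent molecules.

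The members and gene lists were chosen with earlier results of these data known. Besides the members, genes were named by rule: every neighbour within 250 kb that passed, up to 4 called genes of each list with the largest changes, AFP and GPC3, and for IGF2, DLK1 and PEG10 (in place of H19, which lay under 1 CPM) the 3 genes of at least 5 CPM with the most similar pattern. Chosen after their values were seen were the IGF2 to DLK1 ratio, SGCE, MRPL23, IGF2-AS, HYMAI, MESTIT1, SLC22A18, WDR25, IGF1R, IGF2R, INSR, SNRPN, SNURF, CTCF, DNMT1, ZNF71, ZNF470, ZIM2-AS1, CDKN2C, LDOC1, the marker genes and the rows overlapping members. So were GRB14, INPPL1, HMGA2, PLAGL2, LIN28B and IGF2BP3. The alternatives tried were other scalings (upper-quartile or RLE factors, or library totals alone), other filters on low counts (none, or 1 CPM in 3 libraries), other tests (limma-voom and DESeq2), the replicate number as a replicate block, the omission of each library, and a loess correction (span 0.3) for transcript length and GC content, centred in each library. Counts of overlapping rows were also added to their member, HYMAI to PLAGL1 being an addition made after the data were seen. Software was Python 3.11.15 with scipy 1.17.1, matplotlib 3.10.9, numpy 2.4.6 and pandas 2.3.3, and R 4.3.3 with DESeq2 1.42.0, limma 3.58.1 and edgeR 4.0.16.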

Additional observations from a re-analysis of the deposited data

How the results depend on the processing

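IGF2 and DLK1 passed in all 15 alternatives that could move them, IGF2 with log2 fold changes of 0.66 to 0.89 and DLK1 with -0.84 to -0.57. Without each library in turn, the genes called ranged from 3549 to 4567. The members called numbered 2 to 3, with 1 to 2 lower, and CDKN1C ranged from -0.22 to 0.38, reversing in 4 of these fits. Likewise the IGF axis had 1 to 2 lower, the imprint maintenance factors 0 to 1 lower, and the CDK inhibitors and the gag-derived genes each 0 to 1 called, all higher. With the length and GC trend removed, 4 members were called and 3 were lower, 7 other imprinted genes were lower, 4 IGF axis genes were higher and 4 were lower, 7 imprint maintenance factors were called and 5 of these were lower, 1 gag-derived gene was called and higher, and KCNQ1OT1 reversed to -0.14 (adjusted p = 0.0295). The cause was not tested. Members called lower numbered 2 with no filter, with DESeq2 and with limma-voom, and IGF axis genes called lower numbered 2 with no filter. The CDK inhibitors and the gag-derived genes had 1 called, higher, with library totals alone and with the filter of 1 CPM, and the gag-derived genes also with limma-voom. Of 405 counts of calls under alternatives, 373 stayed within 1.5 times the value reported.

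Replicates of the same number did not deviate together: the correlations of their deviations were -0.0555, -0.0735 and -0.195, and no library correlated best with its own number. No pairing by number is thus seen, but deviations from means of 3 libraries cannot exclude shared handling of libraries with the same number. With the replicate block, 3768 genes were called, against 4716 without it. IGF2 was 0.80 (adjusted p = 5.5e-04) and DLK1 was -0.69 (0.00838), and IGF axis genes called lower numbered 2.

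Depth limits MEG3 and CDKN1C, whose interval spans changes of either sign. For H19 and PEG3 a count of 0 allows up to 0.0999 CPM by counting error, and the part of the annotation and of shared reads in these zeros was not tested. The design has 3 libraries a group in 1 cell line at 1 time, and reads in exons shared with overlapping genes could not be reassigned. The overlapping INS-IGF2, ZIM2 and MIR675 rows were all at 0, so adding them to the members could change no value. With the HYMAI counts added, a setting chosen after seeing the data, PLAGL1 was 0.103 (adjusted p = 0.413).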
